A study of Mus musculus with 8 samples.

Results

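The genes described here were the 10 integrin subunits Itga1, Itga3, Itga6, Itga7, Itga8, Itga9, Itga11, Itgb1, Itgb5 and Itgb8, which bind collagens, laminins and other components of the extracellular matrix. They were taken by gene symbol, and each symbol matched 1 of the 21848 genes listed in each count matrix. UMIs, the molecular identifiers that count captured transcripts, were read for these genes in every droplet with at least 2000 UMIs and less than 20% mitochondrial UMIs. Levels are given as CPM, which is UMIs of the gene per 1000000 UMIs of the same cell class in the same mouse.

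Integrins are receptors built from 1 α and 1 β subunit that span the membrane and tie the matrix outside a cell to its actin skeleton. Itga1 and Itga11 encode collagen-binding α subunits, Itga3, Itga6 and Itga7 encode laminin-binding α subunits, Itga8 binds RGD-containing ligands such as nephronectin and fibronectin, and Itga9 binds tenascin-C and osteopontin. All of these α subunits can pair with β1, encoded by Itgb1, whereas Itga6 can also pair with β4. The β5 and β8 subunits pair with the αv subunit, and αvβ8 is known for releasing TGF-β from its latent complex. In vessels of the brain, integrins anchor endothelial and mural cells to the laminin-rich and collagen-rich basement membrane.

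Single cells were sequenced from the right sensorimotor cortex of adult mice at 6 days after photothrombotic ischemia (PT), a stroke made by illuminating the cortex after a photosensitive dye had been injected. The 4 control mice received saline and the 4 other mice received 2.4 U ancrod per day, an enzyme from snake venom that depletes fibrinogen, from osmotic minipumps implanted 2 days before PT. No uninjured mice were among the samples, so both groups shared the stroke, the pump and the dissociation protocol. How readily the tissue came apart may differ, since the study's methods name easier dissociation at the injury site after ancrod as likely. The sample labels name the strain Bl/J6 and the sex as female, whereas C57BL/6N mice of both sexes are given in the methods of the study. The meninges were removed, cells were not sorted or enriched, and myelin was depleted with beads. Mice 1, 2 and 3 of each group formed batch 1 and mouse 4 of each group formed batch 2, for both injury and sequencing. The comparison asked whether depletion of fibrinogen, which itself is deposited as matrix after vessel damage, changed the expression of these receptors in the cells at the lesion.

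Each mouse gave 1 library. Total UMIs ranged from 97861434 to 122758649 in control libraries and from 126682918 to 142139441 in ancrod libraries, and every ancrod library was deeper than every control library. Of 46216 droplets kept, 2144 were removed as doublets, and 44072 cells remained. They formed 54 clusters, which were named from marker genes into 15 classes. Classes carry the name of the marker list that they matched best, and a label such as pericyte stands for pericyte-like cells. A further 6447 cells stayed unnamed. Among these, cluster 3 with 2177 cells matched the endothelial markers best, with a marker score of 0.901 against 0.0992 for the next class. It stayed unnamed because Stmn2, from the neuronal marker list, was among its leading genes beside Gkn3 and Sema3g. It was kept as a group of its own, and endothelial shares and levels leave it out. Endothelial cells made up 12.7 to 14.3% of droplets in control mice and 4.57 to 11.0% in ancrod mice. Fibroblasts made up 0.669 to 4.05% in control mice and 1.68 to 9.77% in ancrod mice, with overlapping ranges. These are shares of recovered droplets and do not count cells in the tissue. By imaging at the same time after PT, the study reported fewer activated perivascular fibroblasts in the lesion core of ancrod mice. Its methods name easier dissociation as the likely reason why reactive fibroblasts trended higher among the sequenced cells of ancrod mice. How dissociation shaped these shares was not tested. Any pair of libraries shared 3 to 15 cell barcodes.

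Each of the 10 integrin genes had its own distribution over the cell classes, and the plot of mean levels by class shows them side by side. Itga1 was highest in pericytes, Itga11 in fibroblasts, Itga6 in endothelial cells, Itga9 in border-associated macrophages, Itgb5 in microglia and Itgb8 in astrocytes. Itga3, Itga7, Itga8 and Itgb1 had their highest mean in smooth muscle cells. Itgb1 was the broadest, with 14 of 16 groups of cells at or above 10% of its highest class mean. Itga11 and Itga7 were the narrowest, with 3 of 16 groups each. Classes were built without any integrin gene, so these levels did not shape the clusters, and they are given as a description with no test. Levels were not compared between genes, because the 3′ counts were not set against transcript length.

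**Figure D1:**
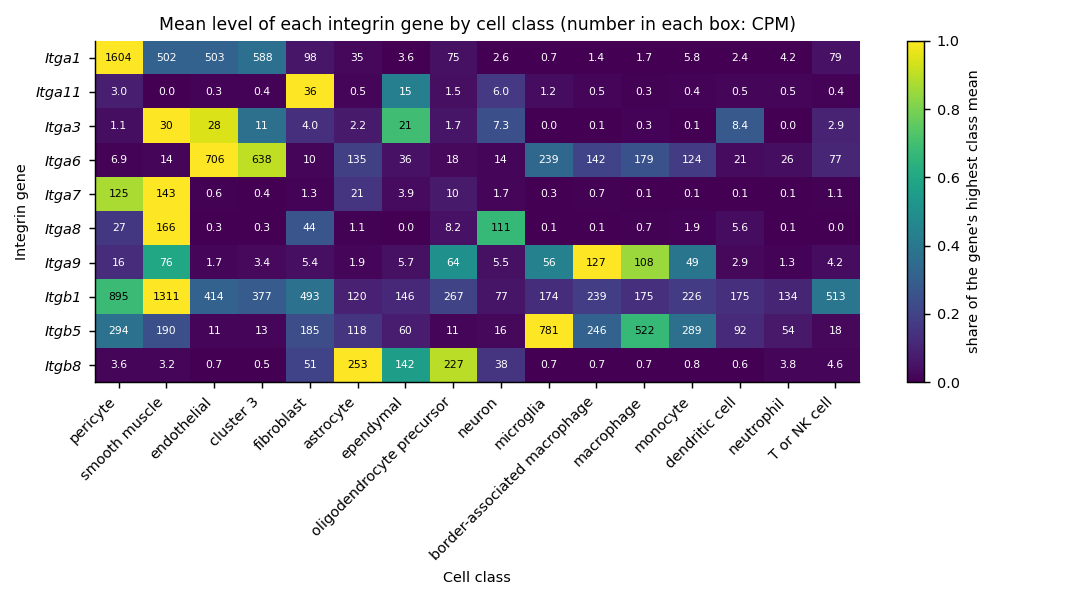
Mean CPM over mice of each integrin gene (rows) in 15 named cell classes and cluster 3 (columns), with the value printed in each box. Colour gives the share of the highest class mean of the same gene, and shows Itga11 at 10% or more of its highest mean in 3 columns and Itgb1 in 14.

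Promoter sequence is shown for the most alike pair of members and for one of the most restricted. Over the 16 groups of cells, the mean levels of Itga1 and Itgb1 were the most alike of the members, with a Pearson correlation of 0.801 on the log2(CPM + 1) scale, which is a description over classes that share their libraries. Itga11 was at or above 10% of its highest mean in 3 groups. The sequences are the 250 bases before the transcription start in the RefSeq promoter table (build GRCm38.p6), read 5′ to 3′ on the strand of the gene, with every CG dinucleotide in capitals.
Itga1 (chr13:115101965-115102214, minus strand): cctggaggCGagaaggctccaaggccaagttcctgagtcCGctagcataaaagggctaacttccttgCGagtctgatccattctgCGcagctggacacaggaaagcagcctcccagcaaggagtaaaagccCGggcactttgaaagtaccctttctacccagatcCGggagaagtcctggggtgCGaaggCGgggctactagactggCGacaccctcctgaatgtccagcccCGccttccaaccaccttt
Itga11 (chr9:62677605-62677854, plus strand): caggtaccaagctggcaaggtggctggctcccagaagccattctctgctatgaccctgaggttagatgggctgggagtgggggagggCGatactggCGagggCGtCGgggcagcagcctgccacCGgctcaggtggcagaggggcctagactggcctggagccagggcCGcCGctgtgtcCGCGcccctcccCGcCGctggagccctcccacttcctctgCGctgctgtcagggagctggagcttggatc
Itgb1 (chr8:128685404-128685653, plus strand): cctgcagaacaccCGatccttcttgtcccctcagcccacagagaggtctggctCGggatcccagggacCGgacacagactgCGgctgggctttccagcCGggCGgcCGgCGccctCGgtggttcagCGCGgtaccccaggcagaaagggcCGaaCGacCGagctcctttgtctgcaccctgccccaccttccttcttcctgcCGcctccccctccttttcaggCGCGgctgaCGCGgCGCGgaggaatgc
The windows held 10 CG dinucleotides for Itga1, 12 for Itga11 and 21 for Itgb1, against a median of 6 over 32851 promoters in the table. The hexamer GGGCGG, searched on both strands, was present in the Itgb1 window and absent from those of Itga1 and Itga11, and 32.7% of all promoters in the table held it. Of the members, 8 had an entry in the table, and Itga6 and Itga7 had none. Such a match describes letters in this window only.

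Itga1 (ENSMUSG00000042284, chr13:115089632-115238677 in GRCm39, minus strand) encodes the α1 subunit, which binds basement membrane collagen. In pericytes, the contractile cells that wrap capillaries, its level was 1604 ± 70.3 CPM (SD, n = 8 mice), with every mouse between 1466 and 1681 CPM. No mouse reached this range in any other class. Cluster 3 followed with 588 ± 48.9 CPM, endothelial cells with 503 ± 54.0 CPM and smooth muscle cells with 502 ± 108 CPM, and these 3 groups overlapped over mice. Fibroblasts stood at 97.8 ± 20.5 CPM and overlapped with T or NK cells at 79.2 ± 14.4 CPM and oligodendrocyte precursors at 75.1 ± 33.2 CPM (n = 7 mice). Astrocytes were at 35.0 ± 9.99 CPM and microglia at 0.665 CPM. When each cell was thinned to 2000 UMIs, 94.9% of pericytes and 0.144% of microglia held an Itga1 UMI (99.1% of pericytes before thinning), at median depths of 5520 and 15381 UMIs per cell. Because endothelial cells were more numerous, they held 43.1% of all Itga1 UMIs, against 12.5% in pericytes and 15.5% in cluster 3.

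Itga11 (ENSMUSG00000032243, chr9:62585108-62691617, plus strand) encodes α11, a receptor for fibrillar collagen that is known from fibroblasts and myofibroblasts. Its level in fibroblasts was 35.8 ± 6.14 CPM (n = 8), with a range of 26.8 to 44.4 CPM. The 2 mice with enough ependymal cells had 11.5 and 19.3 CPM, and neurons had 5.96 ± 3.92 CPM (n = 6). All other groups of cells were below 3 CPM, and smooth muscle cells had 0 UMIs for this gene, which allows up to 1.04 CPM (3 UMIs over all mice, counting error only). Fibroblasts were 4.94% of the cells and held 85.4% of the Itga11 UMIs. Even so, thinning to 2000 UMIs left a UMI in only 6.28% of fibroblasts (63.3% before thinning, at a median depth of 43292 UMIs) and in 0.0881% of endothelial cells (median depth 10336 UMIs).

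The 4 fibroblast clusters differed in their collagen receptors. Cluster 20, with 870 cells led by Cemip, Lum and Lama1, had 135 ± 15.8 CPM of Itga1 and 24.6 ± 3.98 CPM of Itga11. Cluster 26, with 663 cells led by the collagen genes Col1a1, Col1a2 and Col8a1, had 99.6 ± 34.5 CPM of Itga1 and 46.6 ± 8.67 CPM of Itga11. Between these clusters the Itga11 values did not overlap over mice, with 32.4 CPM as the highest in cluster 20 and 37.3 CPM as the lowest in cluster 26, whereas the Itga1 values did. Cluster 33, led by Penk and Ccn3, had 30.8 ± 13.2 CPM of Itga1 (n = 7), below every value of cluster 20, and 28.4 to 63.0 CPM of Itga11. Cluster 36, led by Mmp3 and H1f5, had 116 ± 34.2 CPM of Itga1 and 25.8 ± 13.1 CPM of Itga11 (n = 7).

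**Figure D2:**
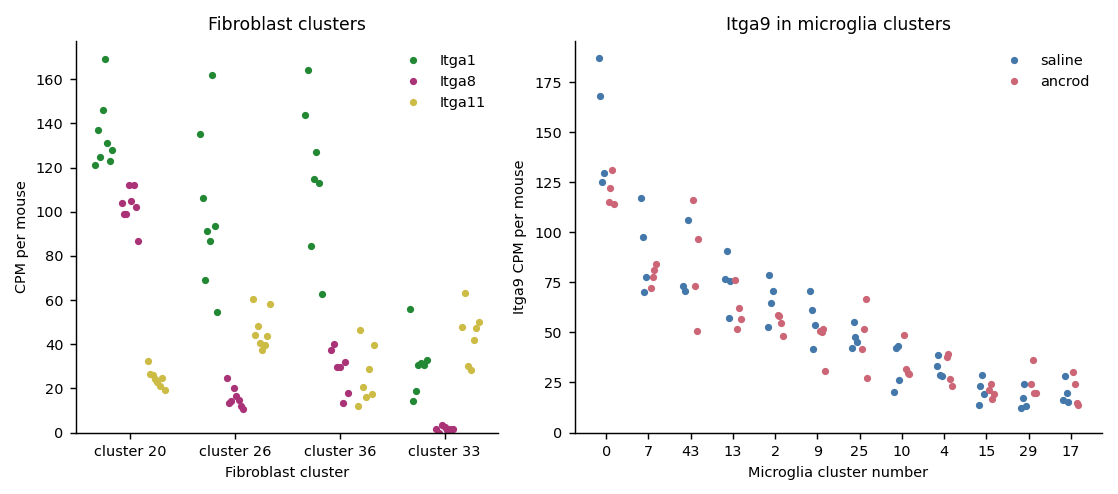
Left, CPM per mouse of Itga1, Itga8 and Itga11 in the 4 fibroblast clusters. Right, CPM per mouse of Itga9 in the 12 microglia clusters, ordered by mean, with saline mice in blue and ancrod mice in red. Each point is 1 mouse with at least 10 cells in the cluster, Itga8 lies near 100 CPM only in cluster 20, and Itga9 is highest in microglia cluster 0.

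Itga3 (ENSMUSG00000001507, chr11:94935296-94967682, minus strand) encodes the laminin receptor subunit α3. It was sparse in all classes, with 29.8 ± 14.6 CPM in smooth muscle cells from 84 UMIs and 28.2 ± 4.70 CPM in endothelial cells from 2510 UMIs, and these levels overlapped. Endothelial cells held 60.8% of its UMIs. Within them it followed the clusters. Cluster 16, led by Ackr1 and Selp, genes of venular endothelium, had 37.8 ± 8.18 CPM, whereas cluster 5, led by Cxcl12 and Ly6c1, had 10.8 ± 3.48 CPM, and no mouse of cluster 5 (highest 15.5 CPM) reached the lowest of cluster 16 (25.1 CPM). Cluster 8, led by Fmo2 and Hmcn1, was at 21.5 ± 3.68 CPM. Dendritic cells had 8.36 ± 3.93 CPM, and microglia had 0.0458 CPM.

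Itga6 (ENSMUSG00000027111, chr2:71575960-71689757, plus strand) encodes α6, the laminin receptor of the brain vasculature and of many epithelia. Endothelial cells had 706 ± 31.8 CPM and cluster 3 had 638 ± 34.0 CPM, and these overlapped. Microglia followed with 239 CPM (range 206 to 289 CPM) and macrophages with 179 ± 20.0 CPM, also with overlapping ranges. Border-associated macrophages, astrocytes and monocytes lay between 124 and 142 CPM on average and overlapped. Pericytes, which were highest for Itga1, were the lowest of all groups for Itga6, at 6.94 CPM. After thinning, 70.6% of endothelial cells and 0.698% of pericytes held an Itga6 UMI (95.5% of endothelial cells before thinning, at a median depth of 10336 UMIs). Microglia were 38.8% of the cells and held 35.9% of Itga6 UMIs, and endothelial cells held 32.3%.

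Among astrocytes, the level of Itga6 differed by cluster. It was 62.6 ± 17.5 CPM in cluster 11, led by Gfap, Mt3 and Aldoc, and 209.6 ± 55.2 CPM in cluster 18, led by Gpc5 and Gabrb1. Cluster 30, led by Wdr17 and Gpc5, had 271 ± 56.9 CPM (n = 7). The highest mouse of cluster 11 (86.3 CPM) was below the lowest of cluster 18 (148 CPM). These clusters differed in depth, with median UMIs per cell of 0.262, 1.06 and 0.393 of the library median in clusters 11, 18 and 30. The part of depth and RNA quality in the Itga6 levels was not tested. Itgb1 was not ordered in the same way, with 98.9 ± 14.3 CPM in cluster 11, 71.6 ± 12.5 CPM in cluster 18 and 204 ± 40.7 CPM (n = 7) in cluster 38, led by the cell-cycle genes Ckap2, Pbk and Rrm2.

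Itga7 (ENSMUSG00000025348, chr10:128769621-128794169, plus strand) encodes α7, the laminin receptor of muscle. It was found at 143 ± 42.1 CPM in smooth muscle cells and 125 ± 19.0 CPM in pericytes, and the values of these mural classes overlapped. Astrocytes followed at 21.4 ± 5.01 CPM, and no astrocyte value (highest 27.6 CPM) reached the lowest pericyte value (101 CPM). In endothelial cells it was at 0.559 CPM. By number of UMIs, however, astrocytes held 37.2% of the Itga7 UMIs, pericytes 27.9% and smooth muscle cells 10.9%. Thinned cells held an Itga7 UMI in 24.3% of pericytes and 0.0499% of endothelial cells (49.9% of pericytes before thinning).

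Itga8 (ENSMUSG00000026768, chr2:12110900-12307214, minus strand) encodes α8, an RGD-binding subunit known from smooth muscle and mesenchymal cells. Smooth muscle cells had 166 ± 34.6 CPM. Neurons had 111 ± 56.9 CPM (n = 6), with a range of 45.3 to 198 CPM that overlapped both smooth muscle cells and fibroblasts, the latter at 43.9 ± 13.7 CPM. Pericytes stood at 27.0 ± 12.2 CPM, and T or NK cells had 0 UMIs, which allows up to 0.400 CPM. The 2 control mice with enough neurons were at 153 and 198 CPM and the 4 ancrod mice at 45.3 to 113 CPM. Neurons were not tested here because at least 3 mice per group were required. The share of all genes that separate in this way was not measured for neurons, so no difference is read from these values. Fibroblasts held 67.0% of Itga8 UMIs and neurons 14.2%.

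Most fibroblast Itga8 came from cluster 20, where it was at 102 ± 8.02 CPM with every mouse between 86.7 and 112 CPM. Cluster 36 had 28.5 ± 9.73 CPM (n = 7), cluster 26 had 15.9 ± 4.63 CPM and cluster 33 had 1.63 ± 1.01 CPM (n = 7). The lowest mouse of cluster 20 was thus above the highest mouse of each other fibroblast cluster, the nearest being 40.2 CPM in cluster 36.

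Itga9 (ENSMUSG00000039115, chr9:118435722-118730072, plus strand) encodes α9, a receptor for tenascin-C and osteopontin. Border-associated macrophages had 127 ± 18.0 CPM and macrophages 108 ± 26.7 CPM, with overlapping ranges of 102 to 162 and 78.6 to 164 CPM. Smooth muscle cells (75.8 ± 33.4 CPM), oligodendrocyte precursors (63.6 ± 11.9 CPM, n = 7), microglia (55.7 ± 13.1 CPM) and monocytes (49.2 ± 12.8 CPM) overlapped with their neighbours in this order. Endothelial cells had 1.73 CPM. Thinning left an Itga9 UMI in 19.3% of macrophages and 0.204% of endothelial cells (72.4% of macrophages before thinning, at a median depth of 29319 UMIs). Weighting every cell equally in this way put macrophages above border-associated macrophages, so the first place is not settled between them.

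Within microglia, Itga9 ranged from 136 ± 26.5 CPM in cluster 0, led by P3h2 and Csmd3, to 20.3 ± 6.49 CPM in cluster 17, led by Olr1 and Lpl. The lowest mouse of cluster 0 (114 CPM) was above the highest of cluster 17 (30.4 CPM). Cluster 4, led by the inflammatory gene Il1a and Bcl2a1a, had 32.0 ± 6.06 CPM. Itgb5 differed less between these clusters, with 973 ± 99.2 CPM in cluster 0 and 606 ± 36.6 CPM in cluster 17. Macrophages split similarly, with 121 ± 27.3 CPM of Itga9 in cluster 1, led by Gpnmb and Lyz2, and 34.1 ± 14.8 CPM in cluster 34, led by the proliferation genes Mki67 and Top2a.

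Itgb1 (ENSMUSG00000025809, chr8:129411876-129460618, plus strand) encodes the β1 subunit shared by all the α subunits above. Smooth muscle cells had 1311 ± 179 CPM and pericytes 895 ± 96.0 CPM, and no value of one reached the other. T or NK cells (513 ± 77.7 CPM) and fibroblasts (493 ± 49.8 CPM) overlapped with each other, and fibroblasts overlapped with endothelial cells (414 ± 28.3 CPM). All myeloid classes lay between 134 and 239 CPM on average. Astrocytes had 119.7 CPM and neurons the lowest mean, 76.6 CPM. After thinning, 91.8% of smooth muscle cells and 14.8% of neurons held an Itgb1 UMI.

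Itgb5 (ENSMUSG00000022817, chr16:33649988-33771137, plus strand) encodes β5, which forms the vitronectin receptor αvβ5. Microglia had 781 ± 69.9 CPM, macrophages 522 ± 36.5 CPM and pericytes 294 ± 29.0 CPM, and each of these ranges was clear of the next. Monocytes (289 ± 45.9 CPM) and border-associated macrophages (246 ± 45.4 CPM) overlapped with pericytes. Fibroblasts had 185 ± 12.8 CPM. Endothelial cells had 11.4 CPM and oligodendrocyte precursors 10.7 CPM. Microglia held 70.4% of Itgb5 UMIs. Itgb5 in free RNA was at 350.1 CPM in droplets with at most 100 UMIs, and thinned microglia held an Itgb5 UMI in 77.4% of cells and endothelial cells in 2.47%.

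Itgb8 (ENSMUSG00000025321, chr12:119121748-119202584, minus strand) encodes β8, whose heterodimer with αv activates TGF-β. Astrocytes had 253 ± 18.8 CPM and oligodendrocyte precursors 227 ± 39.3 CPM (n = 7), and these overlapped. The 2 mice with ependymal cells had 127 and 157 CPM, fibroblasts had 50.8 ± 8.69 CPM and neurons 37.8 ± 19.5 CPM (n = 6). All myeloid classes other than neutrophils were below 1 CPM. Thinning left an Itgb8 UMI in 34.4% of astrocytes, 36.8% of oligodendrocyte precursors and 0.169% of microglia. Before thinning the share was 73.3% of astrocytes, at a median depth of 9374 UMIs. By thinned share oligodendrocyte precursors stood above astrocytes, so the first place is not settled between them. Astrocytes held 69.4% of Itgb8 UMIs and fibroblasts 21.4%. Astrocyte clusters 11, 18, 19 and 37 had means of 254 to 285 CPM, whereas clusters 30 and 38 had 169 ± 35.3 and 178 ± 29.6 CPM (n = 7 each).

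The ligands of these receptors had their own class patterns. The fibrillar collagen genes Col1a1 and Col3a1 stood at 10326 ± 1889 and 6734 ± 1291 CPM in fibroblasts, the class with the highest Itga11, against 41.9 and 364 CPM in pericytes, the class with the highest Itga1. The laminin chain Lama2 was highest in pericytes (1226 ± 145 CPM), as was Lama4 (422 ± 43.4 CPM), whereas Lama5 was highest in smooth muscle cells (232 ± 47.5 CPM). Npnt, which encodes the α8 ligand nephronectin, was at 112 ± 65.6 CPM in smooth muscle cells and 77.7 ± 6.94 CPM in microglia. Fn1 (fibronectin) was at 2593 ± 164 CPM in fibroblasts and 1720 ± 147 CPM in endothelial cells. Of the α9 ligands, Tnc (tenascin-C) was highest in fibroblasts (129 ± 69.7 CPM) and Spp1 (osteopontin) in macrophages (34860 ± 8841 CPM). Tgfb1 was highest in microglia (413 ± 25.5 CPM), a class with 0.723 CPM of Itgb8.

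Among 13911 genes with at least 10 CPM in 1 group of cells, those with the class pattern most like each member were found by Pearson correlation of the mean log2(CPM + 1) over 16 groups. For Itgb8 they were Rnf182 (0.975), Tmem121 (0.975) and Gpm6b (0.971). For Itga7 they were Slc2a4 (0.953), Cacna1h (0.951) and Hey2 (0.947). Itga1 was closest to Sike1 (0.938), Lancl3 (0.934) and Gnb4 (0.922), and Itga8 to Cacna1g (0.934), Npy1r (0.927) and Scn2b (0.922). Itga11 was closest to Serinc2 (0.926), Clec11a (0.925) and Six4 (0.919), and Itga3 to 2900026A02Rik (0.934), Sema3f (0.884) and Sdr39u1 (0.841). Itgb1 was closest to Pou2f3 (0.901), Lpp (0.896) and Msl3 (0.884), and Itgb5 to Htra2 (0.884), Cyp4v3 (0.838) and Fblim1 (0.834). The best matches were lower for Itga9, with Adam9 (0.860), Prxl2b (0.849) and Camk1 (0.830), and for Itga6, with Slc3a2 (0.830), Tal1 (0.823) and Parvb (0.812). No member was among the 3 genes closest to another.

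The spread of free RNA was measured in the classes tested, which leave out neurons and ependymal cells. In neurons, Itga11 at 5.96 CPM stood beside 4.45 CPM in near-empty droplets. In each class tested, the scarcest marker of another class stood at 0.190 to 2.15% of its level in near-empty droplets. By that measure free RNA could give at most 0.482 CPM of Itga1 in microglia, where 0.665 CPM was found, and 0.272 CPM of Itgb8 in cluster 3, where 0.477 CPM was found. Levels this low are not read as expression.

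Ancrod and control mice were then compared within each class, using UMIs summed per mouse. Across 14 groups of cells, 77 of 140 member and class pairs had enough UMIs to be tested. With edgeR's quasi-likelihood test and Benjamini-Hochberg adjustment over all genes of a class, 0 of 77 pairs passed an adjusted p of 0.05, the lowest adjusted p being 0.302. An unadjusted p below 0.05 was found in 6 pairs (7.79%), and over all genes the same share ranged from 2.20 to 14.6% by class. DESeq2 called 0 of these pairs. The share of all genes called was also small, at 0% in 11 groups, 0.00784% in fibroblasts (1 of 12761 genes), 0.155% in pericytes (14 of 9037) and 0.0194% in smooth muscle cells (1 of 5156). Log2 fold changes of the members were above 0 in 41 pairs and below 0 in 36. The 95% intervals reached 0.15 to 1.27 on the log2 scale to either side of the estimate, with a median of 0.39, and 58 of the 77 intervals lay wholly within a log2 change of 1 in either direction.

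**Figure D3:**
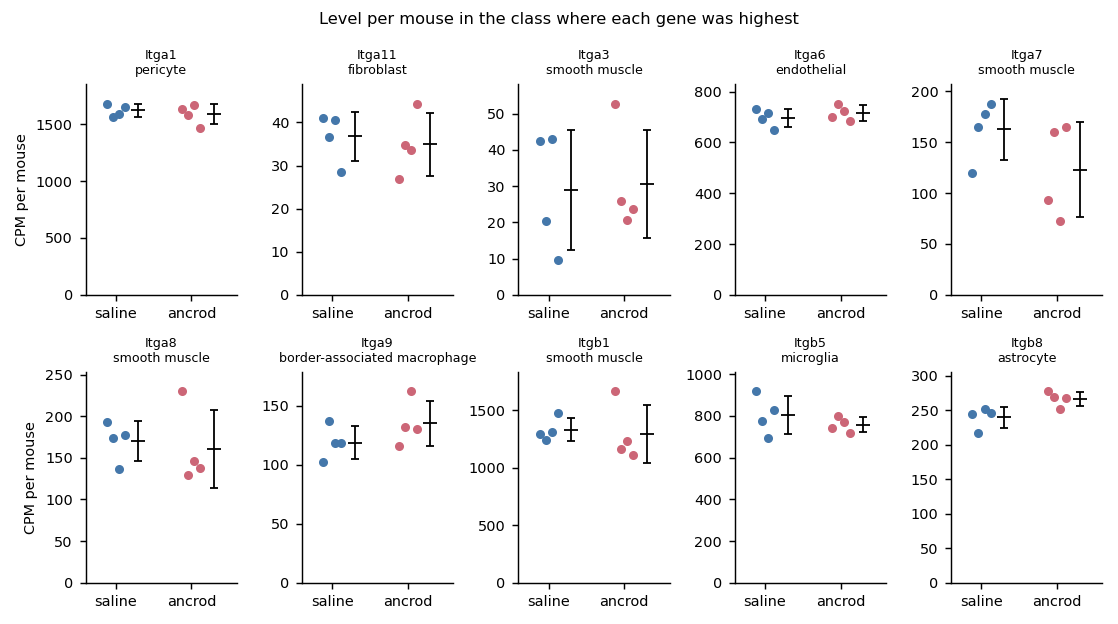
CPM per mouse of each integrin gene in the class where it was highest, with saline mice in blue, ancrod mice in red, and the mean ± SD (n = 4 mice) in black beside them. The groups overlap in every panel other than Itgb8 in astrocytes, where the highest control mouse is at 251 CPM and the lowest ancrod mouse at 252 CPM.

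Itga1 in pericytes was at 1681, 1562, 1591 and 1647 CPM in control mice 1 to 4 and at 1635, 1579, 1670 and 1466 CPM in ancrod mice 1 to 4. The groups overlapped, and the log2 fold change of ancrod over saline was 0.02 ± 0.10 (SE), with a 95% interval of -0.20 to 0.24. Pericytes thus kept a narrow range of Itga1 in all 8 mice. In endothelial cells, Itga1 was at 602, 483, 501 and 546 CPM in control mice and 487, 477, 512 and 417 CPM in ancrod mice, with a log2 fold change of -0.18 ± 0.10 and an adjusted p of 0.595 (edgeR). Within batch 1 this value was -0.10, and in batch 2, with 1 mouse per group, the log2 ratio was -0.39. Endothelial cluster 16 had less Itga1, at 418 ± 45.9 CPM, than clusters 5 (508 ± 45.3 CPM) and 8 (627 ± 50.3 CPM). Its share of endothelial cells was 14.1 to 22.1% in control mice and 25.7 to 43.3% in ancrod mice, without overlap. Of the 41 named clusters, no other had a share of its class that separated in this way, and clusters that form a whole class could not. Cluster 16 was singled out after these shares were seen. The part of the cluster 16 share in the endothelial Itga1 level was not tested.

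Itga11 in fibroblasts was at 41.1, 36.7, 40.6 and 28.6 CPM in control mice and 26.8, 34.8, 33.7 and 44.4 CPM in ancrod mice. The highest and the lowest value both came from ancrod mice. Ancrod over saline gave a log2 fold change of -0.03 ± 0.18 with an interval of -0.43 to 0.37, and it was -0.33 within batch 1 and 0.63 between the mice of batch 2.

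Of the laminin receptor subunits, Itga6 in endothelial cells was at 731, 692, 716 and 650.3 CPM in control mice and 699, 753, 725 and 685 CPM in ancrod mice, a log2 fold change of 0.03 ± 0.08 (interval -0.16 to 0.21). Itga3 in endothelial cells had a log2 fold change of 0.02 ± 0.17 (interval -0.35 to 0.40), from group means of 27.9 and 28.6 CPM. Among the endothelial clusters measured, Itga3 was highest in cluster 16, whose share is given with Itga1. The part of that share in the Itga3 level was not tested. In smooth muscle cells, where its mean was highest, Itga3 had too few UMIs to be tested, with 42.5, 20.4, 43.1 and 9.63 CPM in control mice and 52.8, 25.8, 20.6 and 23.6 CPM in ancrod mice.

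Itga7 in smooth muscle cells was at 119.7, 165, 178 and 188 CPM in control mice and at 93.1, 160.4, 72.9 and 165 CPM in ancrod mice. Ancrod mice 1 and 3 were below all control mice, but the other two lay within their range. In edgeR the log2 fold change was -0.40 ± 0.26 (interval -0.97 to 0.16, adjusted p = 0.855 with edgeR). In pericytes the estimate was on the other side of 0, at 0.16 ± 0.14 (interval -0.13 to 0.46).

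Itga8 in smooth muscle cells was at 193, 174, 137 and 178 CPM in control mice and 229.7, 129, 146 and 138 CPM in ancrod mice, with a log2 fold change of -0.05 ± 0.21 (interval -0.50 to 0.40). In fibroblasts its level was 64.9, 47.3, 38.7 and 57.6 CPM in control mice and 43.6, 27.1, 46.7 and 25.1 CPM in ancrod mice. Ancrod mice 2 and 4 were lower than every control mouse, and the groups overlapped. The log2 fold change was -0.55 ± 0.21 (interval -1.02 to -0.07), with an adjusted p of 0.302 in edgeR, in a class where 14.6% of genes had an unadjusted p below 0.05, and it was -0.39 within batch 1 and -1.20 between the mice of batch 2.

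Beside this, cluster 20, which carried most of the Itga8, made up 56.4, 48.2, 28.6 and 50.2% of fibroblasts in control mice and 38.3, 25.3, 45.1 and 23.4% in ancrod mice. Within cluster 20 alone, Itga8 was at 104, 99.0, 98.9 and 112 CPM in control mice and 105, 112, 102 and 86.7 CPM in ancrod mice, and the groups overlapped. The part of the makeup in the fibroblast Itga8 level was not tested.

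**Figure D4:**
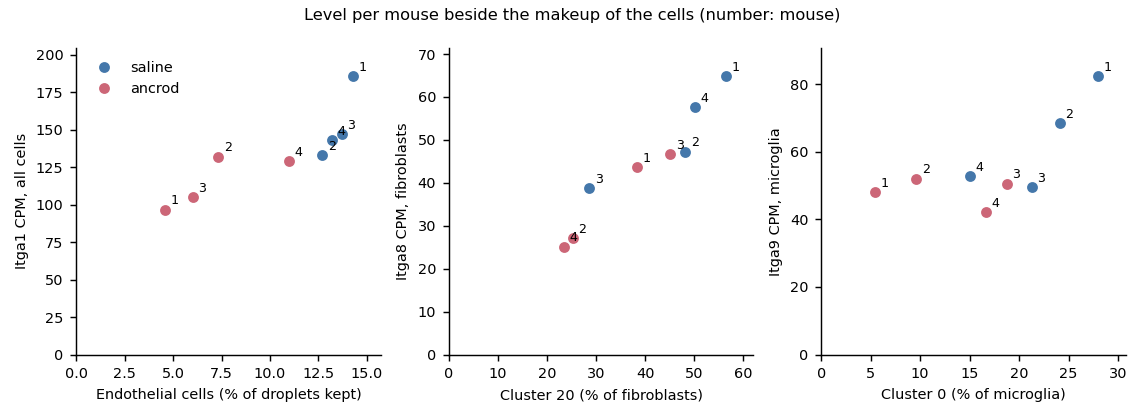
Level per mouse against the makeup of the cells it was read from, with the mouse number beside each point, saline in blue and ancrod in red. Left, Itga1 over all cells against endothelial cells as a percentage of droplets kept, middle, Itga8 in fibroblasts against the percentage of them in cluster 20, and right, Itga9 in microglia against the percentage of them in cluster 0. Control mouse 1 is highest on both axes of each panel.

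Itga9 in border-associated macrophages was at 102, 137, 118 and 118 CPM in control mice and 116, 132, 162 and 130.0 CPM in ancrod mice, a log2 fold change of 0.16 ± 0.13 (interval -0.12 to 0.45). In microglia it was at 82.4, 68.5, 49.5 and 52.8 CPM in control mice and 48.1, 52.0, 50.5 and 42.1 CPM in ancrod mice. Control mice 1, 2 and 4 were above all ancrod mice, and control mouse 3 was not. The estimate was -0.35 ± 0.14 on the log2 scale (interval -0.65 to -0.04) with an adjusted p of 0.959 in edgeR, beside 3.96% of microglial genes with an unadjusted p below 0.05, and it was -0.37 within batch 1 and -0.33 in batch 2. Microglia cluster 0, in which Itga9 was highest, made up 22.1 ± 5.49% of microglia in control mice and 12.6 ± 6.20% in ancrod mice (SD), with overlapping ranges. Within that cluster Itga9 was at 187, 168, 125 and 129.9 CPM in control mice and 115, 122, 131 and 114 CPM in ancrod mice, and control mice 1 and 2 were again above all ancrod mice. How much the makeup contributed was not tested.

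Itgb1, the shared β subunit, was at 1293, 1245, 1309 and 1474 CPM in smooth muscle cells of control mice and 1663, 1160, 1230 and 1113 CPM in those of ancrod mice. Ancrod mouse 1 was the highest of all and the other 3 ancrod mice the lowest. Between the groups the log2 fold change was -0.01 ± 0.15 (interval -0.34 to 0.31). In fibroblasts it was at 486, 456, 508 and 446 CPM in control mice and 516, 594, 441 and 495 CPM in ancrod mice, a log2 fold change of 0.13 ± 0.10 with an interval of -0.10 to 0.35. Itgb1 was tested in all 14 groups of cells, and its lowest adjusted p was 0.570 (edgeR).

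Itgb5 in microglia was at 917, 777, 696 and 829 CPM in control mice and 743, 800.2, 773 and 717 CPM in ancrod mice, with a log2 fold change of -0.04 ± 0.08 (interval -0.22 to 0.14). In fibroblasts, by contrast, all 4 control mice (199.7, 195, 188 and 199 CPM) were above all 4 ancrod mice (168, 177, 181 and 169.7 CPM). Over all genes tested in fibroblasts, 7.33% had groups that did not overlap. The log2 fold change was -0.15 ± 0.07 (interval -0.30 to -0.01), a 1.11-fold difference with an adjusted p of 0.328 in edgeR. It was -0.17 within batch 1 and -0.23 in batch 2. Fibroblast cluster 20 had the highest Itgb5 of the fibroblast clusters, at 243 ± 14.5 CPM against 155 to 158 CPM in the others. Its share per mouse is given with Itga8, and its part in the fibroblast Itgb5 level was not tested. In cluster 3, Itgb5 was lower in each ancrod mouse than in every control mouse, from means of 14.2 and 11.8 CPM. In this group 2.90% of genes did not overlap. The log2 fold change was -0.26 (interval -0.56 to 0.04, adjusted p = 0.964 in edgeR). Endothelial cells had Itgb5 means of 11.2 CPM in control and 11.6 CPM in ancrod mice, a log2 fold change of 0.04.

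Itgb8 in astrocytes was at 244, 217, 251 and 246 CPM in control mice and 277, 269, 252 and 267 CPM in ancrod mice. All ancrod mice were above all control mice, with the nearest pair at 252 and 251 CPM, and 2.50% of genes tested in astrocytes showed such a separation. The log2 fold change was 0.16 ± 0.09 (interval -0.03 to 0.35, adjusted p = 1.000 with edgeR). It was 0.15 within batch 1 and 0.12 in batch 2. In oligodendrocyte precursors, where ancrod mouse 2 had too few cells and was left out of the fit, it was 0.17 ± 0.23 (interval -0.34 to 0.68).

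The remaining pairs with an unadjusted p below 0.05 were at low levels. Itgb8 in microglia had means of 0.479 and 0.967 CPM in control and ancrod mice, with an adjusted p of 0.959 in edgeR. Itga1 in monocytes had means of 2.99 and 8.58 CPM (adjusted p = 0.666), and Itga3 in dendritic cells 5.72 and 11.0 CPM (adjusted p = 0.862), where 6.33% and 5.46% of all genes had an unadjusted p below 0.05. In each of these the groups overlapped.

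**Figure D5:**
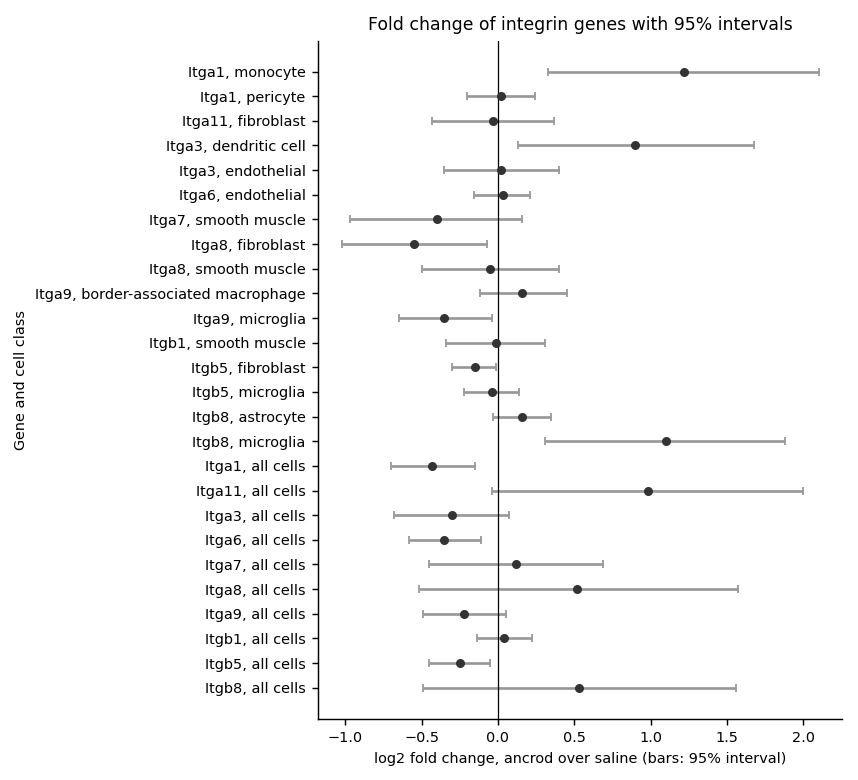
Log2 fold change of ancrod over saline with 95% intervals (edgeR) for each member in the tested class of its highest level, for each pair with an unadjusted p below 0.05, and for all cells together. The interval of each member in the tested class of its highest level crosses 0. Intervals of points with an unadjusted p below 0.05 (edgeR) do not, and no point passed an adjusted p of 0.05.

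Summed over all cells of a mouse, where fewer cells of a type and less RNA per cell cannot be told apart, Itga1 was at 186, 133, 147 and 143 CPM in control mice and 96.7, 132, 105 and 129 CPM in ancrod mice. The groups did not overlap, as for 8.71% of all genes tested on this sum. The log2 fold change was -0.43 ± 0.12 (interval -0.70 to -0.15) with an adjusted p of 0.190 in edgeR, whereas DESeq2 gave an adjusted p of 0.0438 and called 827 of all 16169 genes on this sum (5.11%). It was -0.52 within batch 1 and -0.15 in batch 2. In the classes that held most of its UMIs, the values were 0.02 in pericytes, -0.18 in endothelial cells and 0.01 in cluster 3. The shares of endothelial cells, macrophages and neurons among droplets did not overlap between the groups. The part of cell makeup in the Itga1 level over all cells was not tested.

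Itga6 over all cells was at 289, 264, 297 and 252 CPM in control mice and 208, 255, 196 and 230.0 CPM in ancrod mice, with a log2 fold change of -0.35 ± 0.10 and an adjusted p of 0.203 (edgeR). Ancrod mouse 2 lay above control mouse 4, so that the groups overlapped. Itgb5 over all cells was at 446, 451, 425 and 453 CPM in control mice and 415, 379.8, 396 and 335 CPM in ancrod mice. These did not overlap, and the log2 fold change was -0.25 ± 0.09 with an adjusted p of 0.233. Itga11 over all cells was at 4.57, 3.50, 1.70 and 4.03 CPM in control mice and 4.48, 2.98, 8.61 and 11.4 CPM in ancrod mice, with an estimate of 0.98 ± 0.44 (interval -0.04 to 2.00), and ancrod mice 3 and 4, which were highest, also had the largest shares of fibroblasts. The part of cell makeup in these levels over all cells was not tested. For comparison, 2 of 16169 genes (0.0124%) were called on this sum by edgeR.

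The wider set of matrix ligands and adhesion genes was read from 4 lists, of which 76 of 77 genes were in the files. Of 678 gene and class pairs tested in the 14 groups of cells, edgeR called 0 at an adjusted p of 0.05. DESeq2 called 4 (0.590%), beside 0.189% of all gene and class pairs. The unadjusted p was below 0.05 in 109 (16.1%), beside 5.98% of all gene and class pairs, and the classes share their mice. The lists were chosen with earlier results of these data known, so their shares and directions are a description only. By group of cells, 0 to 13 collagen ligands, 1 to 12 laminin ligands, 5 to 17 other matrix ligands and 17 to 31 activators and adhesion genes had enough UMIs to be tested, and edgeR called 0 of those tested in either direction. Of the list pairs with an unadjusted p below 0.05, 85 were higher and 24 were lower in ancrod mice (78.0% higher), beside 53.3% higher among all gene and class pairs at such a p. The higher pairs include Col1a1 in microglia and macrophages, at mean levels of 8.21 and 7.14 CPM. In near-empty droplets, mean Col1a1 was 546 CPM in control and 1176 CPM in ancrod mice. The part of free RNA in the list pairs was not tested. Of collagen genes at an unadjusted p below 0.05, 0 of 5 in fibroblasts and 10 of 10 in endothelial cells had estimates above 0. Among all genes at such a p, 49.2% were higher in fibroblasts and 57.0% in endothelial cells. The difference between the classes was not tested.

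In fibroblasts, the class with the highest Col1a1 and Col3a1, most of the collagen and laminin genes at an unadjusted p below 0.05 had estimates below 0. Of 13 collagen ligands tested there, 5 had such a p, as did 14.6% of all genes tested in fibroblasts. Of these 5, 0 were higher in ancrod mice, beside 49.2% of all fibroblast genes at such a p. The median log2 fold change of the list was -0.09, beside 0.01 over all genes. Of 12 laminin ligands tested, 7 had such a p, most with estimates below 0, and the median was -0.31. Col4a5 had a log2 fold change of -0.83 ± 0.20 and Lama1 of -0.99 ± 0.27, each with an adjusted p of 0.237 in edgeR, and DESeq2 called both (adjusted p of 0.0130 and 0.0336), among 172 of 12761 genes it called in fibroblasts (1.35%). Col3a1 was at -0.38 ± 0.16 (adjusted p = 0.313 in edgeR). These genes were chosen after their values were seen. Lama1 and Col18a1 were among the genes leading fibroblast cluster 20, whose share per mouse is given with Itga8, and its part in these values was not tested.

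In pericytes, several matrix genes came nearest to the threshold, and those named were likewise picked by their values. Fn1 was at 130.2, 143, 111 and 104 CPM in control mice and 369, 273, 181 and 124 CPM in ancrod mice, with a log2 fold change of 1.02 ± 0.24 and an adjusted p of 0.126 in edgeR. Col1a2 was at 295, 294, 262 and 249 CPM and at 449.7, 377, 376 and 324 CPM, a log2 fold change of 0.52 ± 0.12 (adjusted p = 0.127). Col18a1 was at 137, 87.0, 133 and 136 CPM and at 287, 198, 177 and 146 CPM (0.77 ± 0.19, adjusted p = 0.127). For Col1a2 and Col18a1 the groups did not overlap, as for 5.20% of genes tested in pericytes. In near-empty droplets, mean Fn1 was 389 CPM in control and 513 CPM in ancrod mice and mean Col1a2 325 and 693 CPM. Free RNA made up at most 2.15% of pericyte UMIs, a limit taken over all mice and not set for each group. At that limit it could give 11.0 CPM of Fn1 and 14.9 CPM of Col1a2 in ancrod mice. The parts of free RNA and mixed droplets in these values were not tested.

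Col1a1 in pericytes was at 24.9, 16.1, 28.2 and 26.4 CPM in control mice and 39.6, 15.6, 71.5 and 113 CPM in ancrod mice (1.23 ± 0.42, adjusted p = 0.313 in edgeR), and Adam12 at 6.24, 1.89, 2.25 and 11.2 CPM and at 18.1, 8.47, 18.4 and 42.5 CPM (1.83 ± 0.52, adjusted p = 0.218). The groups overlapped for both genes. Col1a1 was at 10326 CPM and Adam12 at 731 CPM in fibroblasts, whose share of droplets in ancrod mice was highest in mice 3 and 4 and lowest in mouse 2, as was pericyte Col1a1. By the same limit over all mice, free RNA could give up to 11.8 CPM of Col1a1 in control and 25.3 CPM in ancrod pericytes. The parts of free RNA and mixed droplets in the pericyte values were not tested. With the replicate number as a block, Adam12, Col18a1, Col1a1 and Fn1 were among 49 of 9037 genes called in pericytes (0.542%), against 14 without the block, and the numbers do not pair the mice.

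In endothelial cells, the median log2 fold change of 12 collagen genes tested was 2.14, against 0.00 over all genes. Of them 0 were called and 10 had an unadjusted p below 0.05, as did 8.41% of all genes tested there. All 10 were higher in ancrod mice, beside 57.0% of all endothelial genes at such a p. Col1a1 there was at 6.02, 4.08, 1.34 and 10.6 CPM in control mice and 84.3, 2.61, 19.9 and 54.2 CPM in ancrod mice, and ancrod mouse 2 lay within the control range. In near-empty droplets, Col1a1 was at 593, 603, 168 and 822 CPM in control mice and 812, 352, 1295 and 2247 CPM in ancrod mice. Fibroblasts were the class with the highest Col1a1, and their share of droplets was 5.65, 1.68, 9.77 and 9.49% in ancrod mice 1 to 4. Free RNA made up at most 0.939% of endothelial UMIs, taken over all mice, which allows a mean of 5.13 CPM of Col1a1 in control and 11.0 CPM in ancrod mice, where the endothelial means were 5.51 and 40.3 CPM. The parts of free RNA and mixed droplets in the endothelial values were not tested.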

How the data were processed

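The authors made one library per mouse by droplet-based 3′ single-cell RNA sequencing. The submitters' processing notes name Cell Ranger 7.1.0, STAR and the build GRCm39. Per the methods of the study, both exonic and intronic reads that mapped confidently were carried on to gene annotation and UMI counting. The deposited matrices hold raw UMI counts per gene and droplet, including near-empty droplets. Total UMIs per library ranged from 97861434 to 142139441.

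Droplets with at least 2000 UMIs and less than 20% mitochondrial UMIs were kept. Doublets were scored against simulated doublets, and 0.8% per 1000 droplets were removed. Cells were clustered on 3000 variable genes without any integrin gene (20 principal components, 20 neighbours, Leiden resolution 2, leidenalg 0.10.2). Clusters were named from marker lists, with naming thresholds set after the clusters were seen. Of the 13 clusters left unnamed, 4 had few UMIs and no marker among their leading genes (3142 cells), 4 had more and 3 as many leading markers of another class as of their own (2836 and 391 cells), 1 also scored for a class of another compartment (immune, vascular or neural) and 1 scored below 0.25. UMIs were summed per mouse and class where a mouse had at least 10 cells, and classes with at least 3 such mice per group were tested with edgeR 4.0.16 (filterByExpr, TMM, quasi-likelihood, group only, R 4.3.3) with Benjamini-Hochberg adjustment over all genes of the class. Itga3 in smooth muscle cells did not pass the filter on low counts. SD was taken over mice, and p-values measure the spread between these mice. Thinned shares used 2000 UMIs drawn from each cell. Near-empty droplets had at most 100 UMIs.

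All 10 integrin genes are named, each with its values per mouse in the class of its highest mean, together with ligands set for each receptor group and the 3 genes with the most similar class pattern. The integrin genes and the lists of ligands and adhesion genes were chosen with earlier results of these data known. Alternatives were DESeq2 1.42.0, no filter on low counts, the replicate number as a block, a batch term, batch 1 only, each mouse left out, other droplet limits, doublets kept, resolution 1, thinning and subtraction of free RNA. Counts were simulated with 200 genes changed by 1 on the log2 scale. The share recovered was 85.0% in endothelial cells, 77.5% in pericytes, 72.5% in microglia and 72.0% in fibroblasts. It was 50.0% in smooth muscle cells, 27.0% in neutrophils and 0.5% in oligodendrocyte precursors. Up to 12.7% of the genes called were false, the highest share being in T or NK cells. In the real counts edgeR called at most 14 genes in a class, so a single changed gene would meet a stricter adjusted threshold. The recovered shares do not give its chance of being called. One gene of the ligand lists is not reported here.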

Additional observations from a re-analysis of the deposited data

Results flagged for a closer look

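In 40 groups of 4 mice that were examined, 3 values stood far from the other mice of their group, and chance alone flags about 1 in 20 groups. Itga3 in smooth muscle cells was at 52.8 CPM in ancrod mouse 1, with a gap to the next mouse of 0.838 of the group's range. Itga8 in smooth muscle cells was at 229.7 CPM in the same mouse, with a gap of 0.831 of the range, and its smooth muscle sum came from 19 cells. Itgb8 over all cells was at 52.1 CPM in ancrod mouse 2, with a gap of 0.885 of the range, and astrocytes made up 20.3% of the droplets of that mouse, against 7.41 to 10.4% in the other ancrod mice.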

How the results depend on the processing

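No integrin gene was called in any class under any alternative run, and over all cells DESeq2 called 1, Itga1, at a log2 fold change of -0.42. Of the ligand and adhesion genes, DESeq2 called 1 in endothelial cells, 2 in fibroblasts, 1 in pericytes and 6 over all cells. In pericytes the count was also 1 with no filter on low counts, 2 with a batch term, 2 in batch 1 only, 2 with doublets kept, and 0 to 3 with a mouse left out, the 3 without ancrod mouse 4. Over all genes in pericytes the same settings called 38, 25, 57, 26 and 0 to 68, the 68 without ancrod mouse 4. Over all genes in fibroblasts, leaving out a mouse gave 1 to 24 calls, the 24 without ancrod mouse 3. The replicate numbers did not pair the mice over all cells, where deviations of same-numbered mice correlated at -0.572, -0.310, -0.0838 and 0.179, and of the control mice 1 was closest to its own number. In pericytes these correlations were near 0, at 0.0437, 0.00365, 0.00303 and 0.0897. Other pairs of pericyte deviations correlated at -0.0827 to 0.0690, and again 1 control mouse was closest to its own number. With the number as a replicate block, 0 integrin genes and 4 ligand genes in pericytes were called, and the calls over all genes moved from 14 to 49 in pericytes, from 1 to 4 in fibroblasts, from 0 to 5 in monocytes, from 1 to 0 in smooth muscle cells and from 2 to 0 over all cells. DESeq2 called 36 genes in pericytes, 172 in fibroblasts, 21 in monocytes and 827 over all cells, against 14, 1, 0 and 2 with edgeR. Fold changes near 0 turned in direction. In smooth muscle cells, Itga8 was 0.02 and Itgb1 0.10 in batch 1 only, and Itgb1 was 0.04 with a mitochondrial share below 10%. With a mouse left out, the log2 fold change ranged from -0.02 to 0.06 for Itga1 in pericytes, -0.21 to 0.08 for Itga11 in fibroblasts, -0.07 to 0.15 for Itga3 in endothelial cells, -0.27 to 0.05 for Itga8 and -0.16 to 0.05 for Itgb1 in smooth muscle cells, and -0.09 to 0.00 for Itgb5 in microglia. Without a turn in direction, Itga7 in smooth muscle cells ranged from -0.58 to -0.19. Itga9 ranged likewise from 0.06 to 0.24 in border-associated macrophages and from -0.44 to -0.22 in microglia. The level of Itga1 in pericytes was 1446 CPM with doublets kept, and thinning gave 109 CPM for Itga9 in border-associated macrophages and 231 CPM for Itgb8 in astrocytes. The cause of these changes was not tested. Smooth muscle sums came from 18 to 42 cells per mouse.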
